A study of Homo sapiens with 12 samples.

Results

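The genes described here encode the laminin chains, the nidogens, perlecan and agrin, the proteins other than collagen IV that make up most of a basement membrane. Members were taken by symbol: LAMA1, LAMA4, LAMA5, LAMB1, LAMB2, LAMC1, NID1, NID2, HSPG2 and AGRN, which are 10 of the 58735 genes listed. All 10 were found and all 10 passed the filter on low counts, which left 17115 genes for testing. Poly-A RNA was sequenced from HEK293 cells, a line derived from human embryonic kidney and much used in the production of biologics. There were 4 groups of 3 libraries: EXT1 knockdown (EXT1kd) cells in suspension, wild-type (WT) cells in suspension, adherent EXT1kd cells and adherent WT cells. Suspension cells were shaken at 120 rpm in a serum-free medium. Adherent cells were kept in flasks with DMEM and fetal serum and released by trypsin at harvest, so the culture comparison combines medium, serum, shaking and harvest. All groups were kept at 37 °C and 5% CO2 and were collected after 5 passages. The method of the knockdown, the clonal or pooled origin of the EXT1kd line and the source of the replicates (separate cultures or not) are not stated in the labels. All p-values therefore rest on the spread among these libraries, part or all of which may be technical. Other differences between the EXT1kd and WT lines cannot be told apart from the knockdown. Knockdown effect and knockdown difference below name the difference of EXT1kd from WT, whatever its source.

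A basement membrane is a thin sheet of matrix under epithelia and endothelia and around muscle, fat and nerve. Laminins are secreted as heterotrimers of an alpha, a beta and a gamma chain and polymerize at the cell surface, where the alpha chain binds integrins and dystroglycan. Nidogens tie the laminin network to collagen IV, and perlecan and agrin are core proteins that carry heparan sulfate. EXT1 acts with EXT2 to polymerize heparan sulfate chains. The values below are messenger RNA levels and say nothing of protein secreted or of the sugar chains on it.

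Levels are given in CPM, the read count of a gene per M reads of the TMM-scaled library total. EXT1 mRNA was 13.1 to 15.4 CPM in EXT1kd suspension cells against 47.9 to 54.6 CPM in WT suspension cells, and 11.9 to 12.5 CPM in EXT1kd adherent cells against 51.8 to 53.2 CPM in WT adherent cells. Library totals were 13.9 to 21.4 M reads. All 5 markers of HEK293 cells were measured, with a summed level of 485 to 551 CPM in EXT1kd suspension, 566 to 590 CPM in WT suspension, 458 to 466 CPM in EXT1kd adherent and 348 to 428 CPM in WT adherent libraries. Endothelial markers summed to at most 3.08 CPM and leukocyte markers to at most 1.29 CPM in any library. The WT adherent libraries differed most from each other. Replicate 3 was the highest of them for LAMA5, LAMB2, NID1, NID2, HSPG2 and AGRN, and replicate 2 for LAMA1, LAMA4, LAMB1 and LAMC1.

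In adherent cells the knockdown went with higher mRNA for 6 of the 10 genes, namely LAMA1, NID1, AGRN, LAMB2, LAMC1 and LAMB1, and with lower mRNA for LAMA4. LAMA5, NID2 and HSPG2 did not pass the threshold, set at 0.05 for the p of edgeR's quasi-likelihood test after Benjamini-Hochberg adjustment across every gene tested. Over all genes tested, 15.2% were called higher and 11.8% lower in this comparison. The median log2 fold change of the 10 genes was 0.31, against -0.0075 over all genes. In suspension the knockdown went with lower NID2 mRNA, and the other 9 genes did not pass, where 8.29% of all genes were called higher and 12.6% lower. That split of calls, 1419 higher and 2158 lower, depended on the scaling: with library totals alone it was 1931 higher and 1783 lower. The median of the 10 genes was -0.049 there, against -0.0010 over all genes.

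Suspension culture went with higher mRNA for 9 of the 10 genes in WT cells, all but LAMC1, with a median log2 fold change of 0.80 against -0.021 over all genes. In that comparison 27.7% of all genes were called higher and 28% lower. In EXT1kd cells the genes split: LAMA4, HSPG2, LAMA5, AGRN, LAMB1 and NID1 were higher in suspension, LAMA1 and LAMC1 were lower, and LAMB2 and NID2 did not pass. The median was 0.21 against -0.0077 over all genes, of which 26.8% were called higher and 29% lower. The knockdown comparison in adherent cells and the culture comparison in WT cells share the WT adherent libraries, so they are not independent of each other. Measured in bulk, fewer cells that make a transcript and less of it per cell cannot be told apart.

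**Figure D1:**
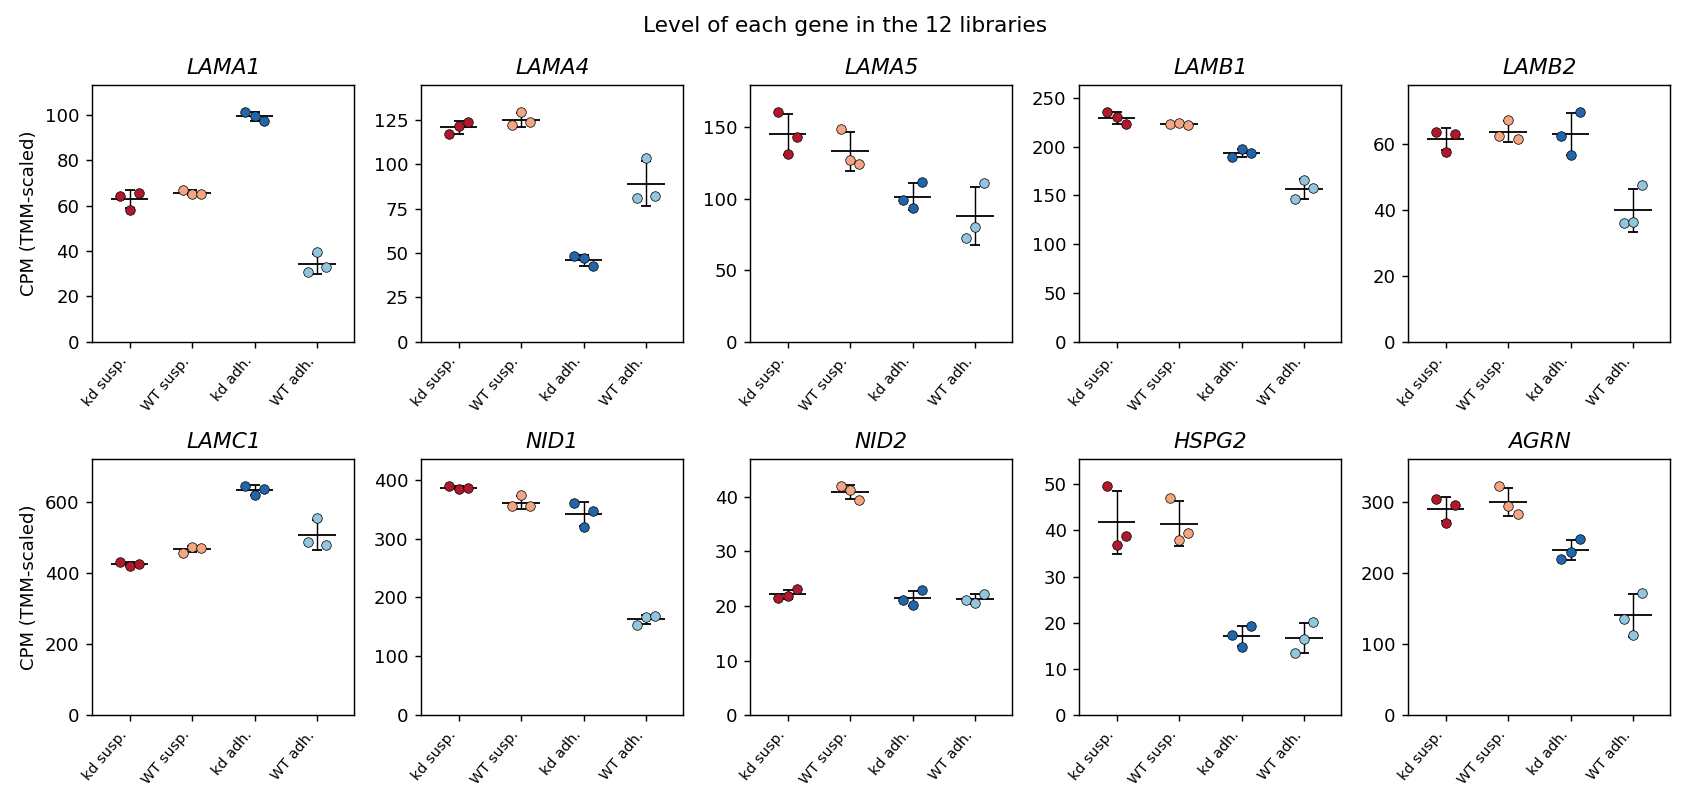
Level of each gene in every library, in TMM-scaled CPM (vertical axes start at 0; kd, EXT1kd; susp., suspension; adh., adherent); points are libraries, horizontal lines group means and bars SD (n = 3). LAMA1 is highest and LAMA4 lowest in the EXT1kd adherent libraries, NID2 stands alone in WT suspension at 39.4 to 42.0 CPM, and NID1 and AGRN are lowest in WT adherent cells.

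Among the alpha chains, which carry most of the receptor-binding sites, LAMA1 and LAMA4 moved in opposite directions with the knockdown in adherent cells. LAMA1 (ENSG00000101680, chromosome 18, 6941744 to 7117814, minus strand, GRCh38) encodes the alpha-1 chain of the first laminin of the embryo. It had 64.3, 58.2 and 65.7 CPM in EXT1kd suspension, 66.9, 64.9 and 65.1 CPM in WT suspension, 101.1, 99.5 and 97.4 CPM in EXT1kd adherent, and 30.8, 39.4 and 33.1 CPM in WT adherent libraries. The adherent groups stood at the top and the bottom with the suspension groups between them, and the suspension groups overlapped. In adherent cells EXT1kd was 2.89-fold higher than WT (log2 1.53, SE 0.085, adjusted p = 3.29e-10). That is a larger absolute change than 98.3% of tested genes had. In suspension the difference was -0.065 (95% interval -0.238 to 0.108, adjusted p = 0.629). Suspension was higher than adherent culture in WT (log2 0.93, SE 0.085, adjusted p = 3.19e-08) and lower in EXT1kd (log2 -0.66, SE 0.082, adjusted p = 1.45e-06).

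LAMA4 (ENSG00000112769, chromosome 6, 112108760 to 112254939, minus strand) encodes the short alpha-4 chain, known from blood vessels, muscle and fat. It had 117.0, 121.4 and 123.9 CPM in EXT1kd suspension, 121.9, 129.2 and 123.9 CPM in WT suspension, 48.0, 47.0 and 42.4 CPM in EXT1kd adherent, and 81.2, 103.6 and 82.0 CPM in WT adherent libraries. The EXT1kd adherent libraries lay below all others, and the suspension groups overlapped. In adherent cells LAMA4 fell by 0.96 on the log2 scale in EXT1kd (SE 0.088, 1.94-fold, adjusted p = 3.21e-07). The difference in suspension was -0.049 (95% interval -0.224 to 0.125, adjusted p = 0.723). Suspension exceeded adherent culture by 1.40 in EXT1kd (SE 0.088, adjusted p = 1.88e-10) and by 0.49 in WT cells (SE 0.084, adjusted p = 6.4e-05) on the log2 scale.

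LAMA5 (ENSG00000130702, chromosome 20, 62307955 to 62367312, minus strand) encodes the alpha-5 chain, the most widespread one in adult epithelia. It had 160.3, 131.4 and 143.2 CPM in EXT1kd suspension, 148.8, 126.7 and 124.0 CPM in WT suspension, 98.9, 93.5 and 111.9 CPM in EXT1kd adherent, and 72.4, 80.2 and 110.8 CPM in WT adherent libraries. EXT1kd and WT overlapped in both cultures, and every suspension library lay above every adherent one. Suspension was higher in EXT1kd (log2 0.51, SE 0.12, adjusted p = 0.00138) and in WT (log2 0.60, SE 0.12, adjusted p = 0.000368). The knockdown differences were 0.12 in suspension (95% interval -0.131 to 0.373) and 0.21 in adherent cells (95% interval -0.0494 to 0.463, adjusted p = 0.232). Without WT adherent replicate 3 the adherent difference was 0.41 with an adjusted p of 0.0033. LAMA5 overlaps ADRM1, a proteasome subunit gene on the opposite strand, and the strand setting of the counting is not given in the sources used here. How reads from the stretch shared by the pair were assigned is therefore not known, and the length of that stretch was not measured. ADRM1 was lower in suspension, by 0.49 in EXT1kd and 0.65 in WT on the log2 scale (adjusted p = 0.00099 and 5.39e-05).

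The beta and gamma chains complete the trimer, and all 3 of these genes were higher in EXT1kd than in WT adherent cells. LAMB1 (ENSG00000091136, chromosome 7, 107923799 to 108003255, minus strand), the commoner beta chain, had 235.2, 230.7 and 223.0 CPM in EXT1kd suspension, 223.5, 224.2 and 222.1 CPM in WT suspension, 189.8, 197.3 and 193.5 CPM in EXT1kd adherent, and 146.1, 165.6 and 158.1 CPM in WT adherent libraries. The adherent groups did not overlap, and both lay below suspension. The adherent knockdown difference was 1.24-fold (log2 0.31, SE 0.062, adjusted p = 0.00115), and that in suspension was 0.041 (95% interval -0.0873 to 0.168). Suspension was higher than adherent culture by 0.25 in EXT1kd (SE 0.061, adjusted p = 0.00205) and by 0.51 in WT (SE 0.062, adjusted p = 1.1e-06) on the log2 scale. LAMB1 overlaps DLD on the opposite strand, a mitochondrial dehydrogenase gene that passed the threshold in none of the 5 comparisons, with adjusted p-values of 0.526 to 0.993.

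LAMB2 (ENSG00000172037, chromosome 3, 49121114 to 49133118, minus strand) encodes the beta-2 chain, known from the kidney glomerulus and the neuromuscular junction. It had 63.7, 57.7 and 63.1 CPM in EXT1kd suspension, 62.5, 67.5 and 61.6 CPM in WT suspension, 62.6, 56.8 and 69.7 CPM in EXT1kd adherent, and 36.1, 36.3 and 47.5 CPM in WT adherent libraries. The WT adherent libraries were below the 9 others, which overlapped. EXT1kd was higher than WT in adherent cells (log2 0.66, SE 0.10, adjusted p = 0.000112), and suspension was higher than adherent culture in WT (log2 0.67, SE 0.10, adjusted p = 1.65e-05). The median log2 change of chromosome 3 in the adherent knockdown comparison was 0.26, and with chromosome medians removed LAMB2 was higher by 0.40 (adjusted p = 0.0148). In EXT1kd the suspension difference was -0.038 (adjusted p = 0.772), and with chromosome medians removed it was 0.29 (adjusted p = 0.0296), where the chromosome 3 median was -0.305. The knockdown difference in suspension was -0.055 (95% interval -0.264 to 0.154).

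LAMC1 (ENSG00000135862, chromosome 1, 183023460 to 183145592, plus strand) encodes the gamma-1 chain found in most laminins. It had 430.6, 421.1 and 425.5 CPM in EXT1kd suspension, 457.8, 473.1 and 472.5 CPM in WT suspension, 645.4, 619.3 and 637.3 CPM in EXT1kd adherent, and 488.4, 556.5 and 480.6 CPM in WT adherent libraries. No 2 of the groups overlapped, with EXT1kd at the top in adherent culture and at the bottom in suspension. The adherent knockdown difference was 1.25-fold (log2 0.32, SE 0.064, adjusted p = 0.00119). The suspension one was -0.14 (SE 0.065) and did not pass the threshold over all genes in edgeR (adjusted p = 0.144, unadjusted 0.0489). None of the other 8 genes not called in that comparison was under 0.05 before adjustment. LAMC1 was lower in suspension than in adherent EXT1kd cells (log2 -0.57, SE 0.065, adjusted p = 4.38e-07). In WT that difference was -0.12 (adjusted p = 0.121), and without WT adherent replicate 3 it was -0.165 (adjusted p = 0.0326).

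The nidogens differed from each other in the culture where EXT1kd was called different from WT. NID1 (ENSG00000116962, chromosome 1, 235975830 to 236065162, minus strand), the main laminin linker, had 388.9, 384.3 and 386.0 CPM in EXT1kd suspension, 355.0, 373.5 and 354.5 CPM in WT suspension, 359.9, 320.4 and 346.0 CPM in EXT1kd adherent, and 153.7, 167.0 and 168.0 CPM in WT adherent libraries. The WT adherent libraries stood far below the 9 others. EXT1kd was 2.1-fold higher than WT in adherent cells (log2 1.07, SE 0.064, adjusted p = 1.03e-09). In suspension the difference was 0.098 (95% interval -0.0335 to 0.229, adjusted p = 0.289), although every EXT1kd library lay above every WT one. Suspension exceeded adherent culture by 1.15 in WT (SE 0.064, adjusted p = 4.08e-11) on the log2 scale. In EXT1kd it did so by 0.18 (SE 0.063, adjusted p = 0.0234), a call that was lost without EXT1kd adherent replicate 2 (adjusted p = 0.0727) and without EXT1kd suspension replicate 2 or 3 (adjusted p = 0.0562 and 0.0568).

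NID2 (ENSG00000087303, chromosome 14, 52004803 to 52069228, minus strand) encodes the second nidogen. It had 21.5, 21.9 and 23.1 CPM in EXT1kd suspension, 42.0, 41.3 and 39.4 CPM in WT suspension, 21.2, 20.1 and 22.9 CPM in EXT1kd adherent, and 21.1, 20.6 and 22.3 CPM in WT adherent libraries. The WT suspension libraries stood alone, and the other 3 groups overlapped. In suspension NID2 fell by 0.88 on the log2 scale in EXT1kd (SE 0.083, 1.84-fold, adjusted p = 6.46e-07). The adherent knockdown difference was 0.0075 (95% interval -0.17 to 0.185, adjusted p = 0.963). WT suspension exceeded WT adherent cells by 0.94 (SE 0.082, adjusted p = 1.82e-08), while in EXT1kd that difference was 0.048 (adjusted p = 0.657). Chromosome 14 as a whole had a median of -0.358 in the suspension knockdown comparison, and with chromosome medians removed NID2 fell by 0.547 (adjusted p = 0.000234). In the EXT1kd culture comparison, where the chromosome 14 median was -0.404, removing it gave 0.437 with an adjusted p of 0.000303. RTRAF, an RNA-binding factor gene that overlaps NID2 on the opposite strand, also fell in the suspension knockdown comparison, by 0.482 (adjusted p = 5.43e-05). Between suspension and adherent culture RTRAF was at 0.0297 in WT (adjusted p = 0.722) and at -0.315 in EXT1kd (adjusted p = 0.000537). How reads from the stretch shared by the pair were assigned is not known.

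The heparan sulfate proteoglycans also behaved differently from each other. HSPG2 (ENSG00000142798, chromosome 1, 21822245 to 21937297, minus strand) encodes the large core protein perlecan. It had 49.5, 36.9 and 38.8 CPM in EXT1kd suspension, 46.9, 38.0 and 39.3 CPM in WT suspension, 17.3, 14.8 and 19.2 CPM in EXT1kd adherent, and 13.5, 16.5 and 20.1 CPM in WT adherent libraries. Suspension libraries lay above all adherent ones, and EXT1kd and WT overlapped in each culture. Suspension was 2.42-fold higher in EXT1kd (log2 1.28, SE 0.14, adjusted p = 3.15e-07) and 2.47-fold higher in WT (log2 1.31, SE 0.14, adjusted p = 2.34e-07). On the log2(FPKM + 1) scale, which shrinks changes of genes this low, the differences were 0.766 in EXT1kd and 0.777 in WT. The knockdown differences were 0.0076 in suspension (95% interval -0.267 to 0.283) and 0.036 in adherent cells (95% interval -0.269 to 0.342).

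AGRN (ENSG00000188157, chromosome 1, 1020123 to 1056118, plus strand) encodes agrin, which binds laminin, dystroglycan and LRP4 and clusters acetylcholine receptors at the nerve-muscle synapse. It had 303.8, 271.2 and 295.6 CPM in EXT1kd suspension, 322.4, 294.4 and 283.2 CPM in WT suspension, 220.2, 230.4 and 248.2 CPM in EXT1kd adherent, and 135.5, 113.3 and 172.7 CPM in WT adherent libraries. The adherent groups did not overlap and lay below suspension, where EXT1kd and WT overlapped. The adherent knockdown difference was 1.66-fold (log2 0.73, SE 0.11, adjusted p = 6.26e-05), and that in suspension was -0.048 (95% interval -0.268 to 0.171). Suspension was higher by 0.32 in EXT1kd (SE 0.11, adjusted p = 0.0154) and by 1.09 in WT (SE 0.11, adjusted p = 8.03e-08) on the log2 scale.

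**Figure D2:**
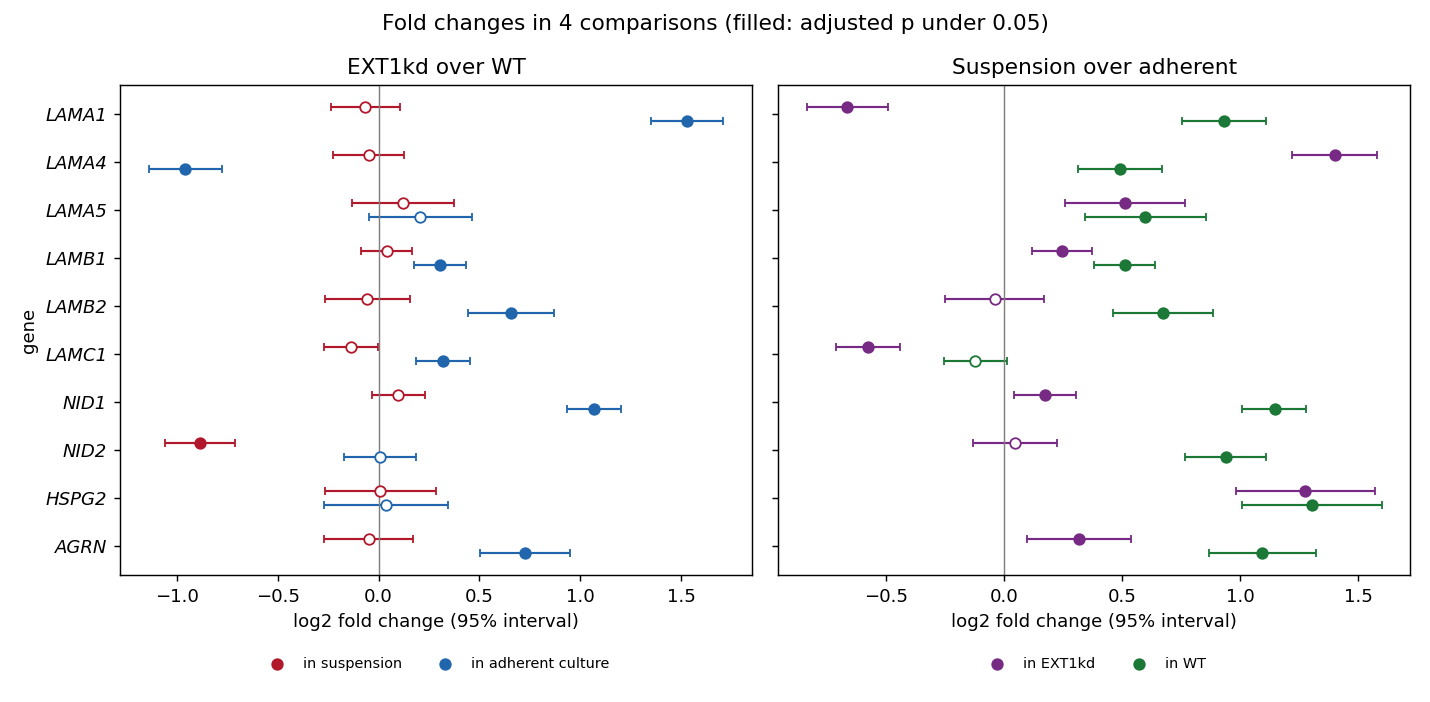
Log2 fold changes of the 10 genes with 95% intervals (horizontal axes), EXT1kd over WT on the left and suspension over adherent on the right; filled points passed an adjusted p of 0.05 in edgeR. On the left NID2 is the filled point in suspension at -0.88, while LAMA1 at 1.53 and LAMA4 at -0.96 mark the ends of the adherent comparison.

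The knockdown effect differed between the cultures for 8 of the 10 genes, by the test of the difference itself (effect in suspension minus effect in adherent cells, the interaction). It was lower in suspension for LAMA1, NID1, NID2, AGRN, LAMB2, LAMC1 and LAMB1, and higher for LAMA4. LAMA5 and HSPG2 did not pass, with differences of -0.085 (95% interval -0.445 to 0.274) and -0.029 (95% interval -0.44 to 0.382) on the log2 scale. Over all genes 9.45% were called higher and 14.6% lower in this test, and the median of the 10 genes was -0.58, against -5.4e-05 over all genes. The widest were LAMA1 at -1.59 (SE 0.12, adjusted p = 1.77e-08), NID1 at -0.97 (SE 0.089, adjusted p = 4.2e-07) and LAMA4 at 0.91 (SE 0.12, adjusted p = 3.2e-05). The narrowest call was LAMB1 at -0.26 (adjusted p = 0.0324), which did not pass without WT adherent replicate 1, or without any 1 of the 9 libraries of the other groups, with adjusted p-values of 0.0592 to 0.0971. NID2 was at -0.89 (adjusted p = 3.17e-05), and at -0.522 (adjusted p = 0.00553) with chromosome medians removed.

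Per gene length, in FPKM (counts scaled to gene length and library size), LAMC1 and NID1 were the most abundant of the 10 mRNAs in every group and HSPG2 the least. In EXT1kd suspension NID1 averaged 65.7 ± 0.60 FPKM (SD, n = 3 here and below), ahead of LAMC1 at 50.5 ± 0.40 FPKM. LAMB1 followed at 28.1 ± 0.47 and AGRN at 26.9 ± 1.4 FPKM, and their libraries overlapped. LAMA4 at 10.4 ± 0.44, LAMA5 at 10.1 ± 0.90 and LAMB2 at 8.93 ± 0.44 FPKM overlapped with their neighbours in the order, then came LAMA1 at 3.94 ± 0.25, NID2 at 3.46 ± 0.17 and HSPG2 at 2.30 ± 0.34 FPKM. WT suspension had the same leading pair, NID1 at 61.2 ± 2.2 and LAMC1 at 55.3 ± 1.4 FPKM, with AGRN at 27.7 ± 1.7 and LAMB1 at 27.3 ± 0.28 FPKM overlapping. There NID2, at 6.36 ± 0.20 FPKM, stood above LAMA1 at 4.11 ± 0.045 FPKM.

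In adherent cells LAMC1 led NID1, with 74.4 ± 1.5 against 57.6 ± 3.3 FPKM in EXT1kd and 59.9 ± 5.0 against 27.5 ± 1.4 FPKM in WT. The order of the alpha chains differed between the lines. In EXT1kd the order was LAMA5 at 7.0 ± 0.62, LAMA1 at 6.18 ± 0.14 and LAMA4 at 3.90 ± 0.27 FPKM, with no overlap between neighbours. In WT it was LAMA4 at 7.60 ± 1.1 and LAMA5 at 6.08 ± 1.4 FPKM, which overlapped, and LAMA1 at 2.15 ± 0.28 FPKM.

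The make-up of the alpha chain mRNA followed from these levels. LAMA1 supplied 36.2 ± 1.2% of the summed LAMA1, LAMA4 and LAMA5 FPKM in EXT1kd adherent libraries and 13.6 ± 1.1% in WT adherent ones. LAMA4 supplied 22.9 ± 1.8% in EXT1kd and 48.1 ± 5.6% in WT adherent libraries, and neither share overlapped between the lines (exact two-sided permutation p = 0.1 for each, the smallest that 3 against 3 libraries can give). In suspension the LAMA1 share was 16.1 ± 0.50% in EXT1kd and 17.1 ± 0.37% in WT (exact p = 0.1), and the LAMA4 share was 42.6 ± 2.6% in EXT1kd and 44.6 ± 2.4% in WT (exact p = 0.4). Among these 3 genes the LAMA5 share overlapped in all 4 comparisons, at group means of 38.3% to 41.3%. LAMA3, which is not among the 10 genes, averaged 4.37 FPKM in EXT1kd suspension, 5.51 FPKM in WT suspension, 6.52 FPKM in EXT1kd adherent and 3.04 FPKM in WT adherent cells. With LAMA2 and LAMA3 counted among the alpha chains, an alternative added after the data were seen, LAMA1 supplied 25.8% in EXT1kd and 11.3% in WT adherent cells, and the suspension difference in its share was -0.142 percentage points (exact p = 0.8). On the same basis the LAMA5 share was 3.93 points higher in EXT1kd than in WT suspension cells (exact p = 0.1) and 5.58 points higher in suspension than in adherent EXT1kd cells (exact p = 0.1), against 2.93 and 0.32 points without LAMA2 and LAMA3. Its adherent knockdown difference was -2.75 points (exact p = 0.7), against 2.67 points (exact p = 0.6).

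NID2 supplied 5.00 ± 0.18% of nidogen FPKM in EXT1kd and 9.41 ± 0.32% in WT suspension libraries. In adherent culture it supplied 5.43 ± 0.30% in EXT1kd and 10.7 ± 0.51% in WT. The share was thus lower in EXT1kd in both cultures without overlap (exact p = 0.1 each), with NID2 the gene that differed in suspension and NID1 the gene that differed in adherent cells. AGRN supplied 91.2% to 96.3% of the summed AGRN and HSPG2 FPKM in all 12 libraries. LAMB2 supplied 20.6% to 29.9% of LAMB1 and LAMB2 FPKM.

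Set against LAMC1, the chains and linkers differed by culture, and most of the ratios also differed by the knockdown. The summed alpha chains were 0.484 ± 0.016 of LAMC1 FPKM in EXT1kd suspension and 0.230 ± 0.0027 in EXT1kd adherent cells, against 0.436 ± 0.023 in WT suspension and 0.265 ± 0.028 in WT adherent cells. The beta chains were 0.734 ± 0.011 of LAMC1 in EXT1kd suspension and 0.437 ± 0.013 in EXT1kd adherent cells, against 0.660 ± 0.014 in WT suspension and 0.416 ± 0.039 in WT adherent cells. The nidogens were 1.37 ± 0.0085 of LAMC1 in EXT1kd suspension and 0.817 ± 0.030 in EXT1kd adherent cells, against 1.22 ± 0.032 in WT suspension and 0.516 ± 0.042 in WT adherent cells. Suspension and adherent libraries did not overlap for any of these ratios in either line (exact p = 0.1 each). EXT1kd and WT libraries overlapped only for the beta ratio in adherent cells (exact p = 0.4). They were apart for the alpha and nidogen ratios in both cultures and for the beta ratio in suspension (exact p = 0.1 each). The alpha ratio was lower in EXT1kd in adherent cells and higher in suspension. With LAMA2 and LAMA3 added, the adherent knockdown difference in the alpha ratio was 0.00412 (exact p = 0.8), against -0.0353 without them. The suspension one was then 0.0326 (exact p = 0.3), against 0.0482.

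**Figure D3:**
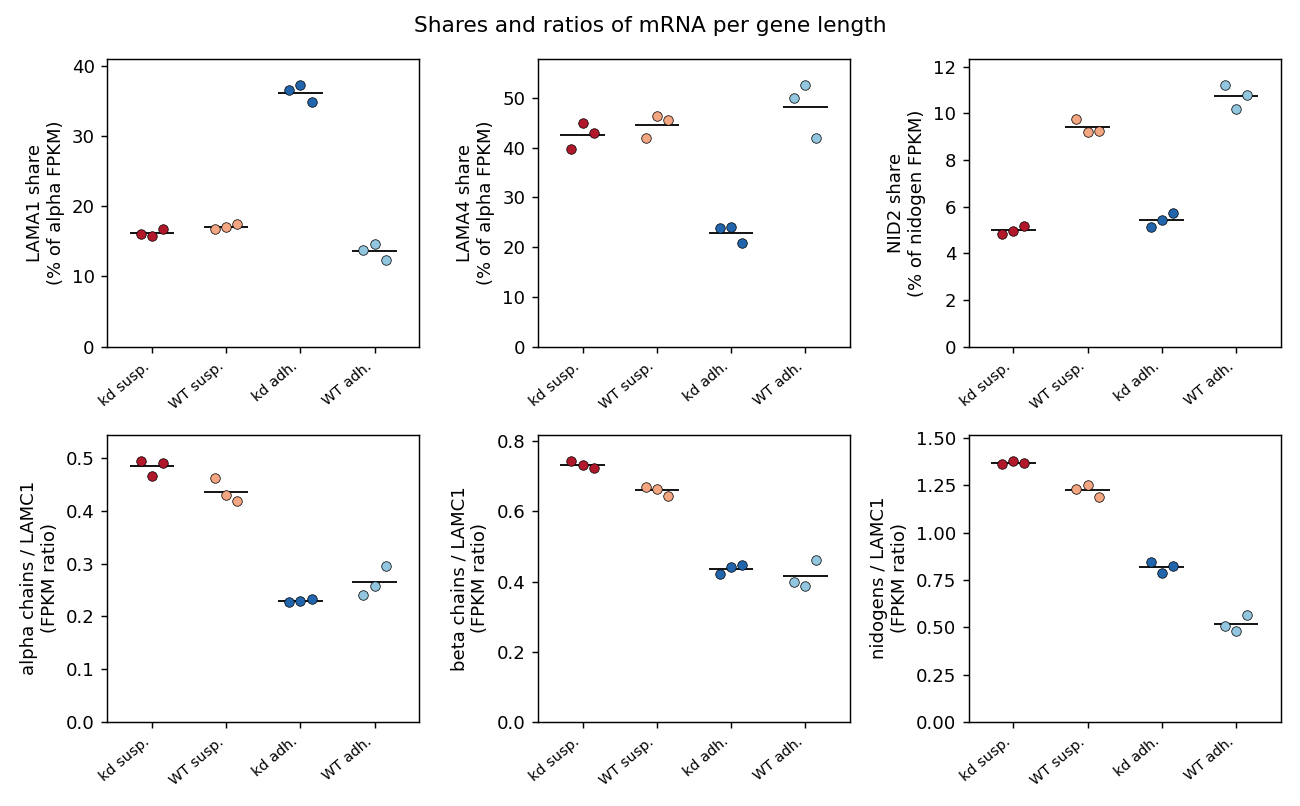
Shares within the alpha chains and the nidogens (percent of FPKM, top row; the third panel is NID2) and summed alpha chains, beta chains and nidogens relative to LAMC1 (FPKM ratios, bottom row) in each library, with group means as lines; kd, EXT1kd; susp., suspension; adh., adherent. The LAMA1 share is 34.8% to 37.2% in EXT1kd adherent libraries and at most 17.5% in all others, and all 3 ratios are higher in suspension.

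Promoter windows from RefSeq (GRCh38.p14), running from 250 bases before to 50 bases after the annotated start, were matched to 8 of the 10 genes, all but LAMA1 and AGRN. They are shown for NID1 and LAMA4, which moved in opposite directions with the knockdown in adherent cells, for NID2, which moved in suspension, and for HSPG2, which moved with culture and not past the threshold with the knockdown. Letters run 5′ to 3′ on the gene's strand, which is minus for these 4 genes, and capitals mark the GC box GGGCGG on either strand.
NID1: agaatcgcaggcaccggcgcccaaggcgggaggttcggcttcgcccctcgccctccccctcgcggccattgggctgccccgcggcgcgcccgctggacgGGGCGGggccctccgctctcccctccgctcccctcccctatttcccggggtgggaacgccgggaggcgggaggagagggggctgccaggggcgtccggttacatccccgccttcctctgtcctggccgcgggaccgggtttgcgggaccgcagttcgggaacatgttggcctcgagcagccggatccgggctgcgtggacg
LAMA4: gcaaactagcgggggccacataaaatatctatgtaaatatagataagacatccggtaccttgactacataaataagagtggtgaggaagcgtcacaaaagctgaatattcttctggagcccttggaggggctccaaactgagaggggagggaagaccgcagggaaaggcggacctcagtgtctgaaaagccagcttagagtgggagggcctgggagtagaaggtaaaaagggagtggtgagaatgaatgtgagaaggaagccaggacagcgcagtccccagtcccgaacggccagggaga
NID2: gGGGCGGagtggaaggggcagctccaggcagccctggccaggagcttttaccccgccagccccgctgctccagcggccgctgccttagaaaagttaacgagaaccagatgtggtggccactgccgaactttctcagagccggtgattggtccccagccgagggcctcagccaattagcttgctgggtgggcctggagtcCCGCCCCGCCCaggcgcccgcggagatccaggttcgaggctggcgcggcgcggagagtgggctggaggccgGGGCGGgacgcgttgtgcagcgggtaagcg
HSPG2: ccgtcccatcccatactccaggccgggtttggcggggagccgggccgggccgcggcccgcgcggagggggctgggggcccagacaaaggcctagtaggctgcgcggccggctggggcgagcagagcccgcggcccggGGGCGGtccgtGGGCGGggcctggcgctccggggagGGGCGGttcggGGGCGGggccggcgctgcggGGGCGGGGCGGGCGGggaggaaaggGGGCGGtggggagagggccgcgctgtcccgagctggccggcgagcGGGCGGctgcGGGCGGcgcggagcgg
The windows are chr1:236065041-236065340 for NID1, chr6:112254518-112254817 for LAMA4, chr14:52069010-52069309 for NID2 and chr1:21937261-21937560 for HSPG2.

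The LAMA4 window had the lowest share of G and C of the 8 and was the only one without a GC box. Its start lay 372 bases from the gene start that came with the counts, against at most 169 bases for the others. The LAMA4 window was 51.3% G and C with 8 CpG pairs, below the median of 58.7% and 14 CpG over all 35116 windows. The LAMB2 window, at 58.7% with 15 CpG pairs, was close to those medians. The HSPG2 window was 83.3% G and C with 44 CpG pairs and 10 GC boxes, counting overlapping matches, and the LAMA5 window 82.7% with 41 CpG pairs and 5 GC boxes. NID1 had 74.7% G and C with 1 GC box, and NID2 had 69% with 4. LAMB1 held 4 GC boxes, LAMC1 held 3 and LAMB2 held 1. The GC box was in 45% of all windows. CCAAT on either strand was in NID1 (1 match) and NID2 (2 matches) and in 34.6% of all windows. Further motifs were searched on both strands and were in none of the 8 windows. The TATA box motif TATAAA was in 11.5% of all windows. The AP-1 motif, spelled TGANTCA, was in 7.71% of them, and the motif of TEAD factors, spelled GGAATG, was in 14%.

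Further laminin chain genes outside the 10 took part in the same comparisons. LAMA2 encodes the alpha-2 chain of muscle laminin, LAMA3 and LAMB3 encode chains of the laminin that anchors skin epithelium, and LAMC3 encodes the gamma-3 chain. In suspension LAMC3 was lower in EXT1kd, at -1.11 on the log2 scale (adjusted p = 3.73e-05), as was LAMA2, at -0.90 (adjusted p = 0.00482). LAMA3 was also lower there, at -0.34 (adjusted p = 0.0252). In adherent cells LAMA2 was higher in EXT1kd, at 1.58 (adjusted p = 3.28e-05), as was LAMA3, at 1.11 (adjusted p = 4.47e-07). LAMA2 averaged 1.84 ± 0.31 CPM in EXT1kd suspension, 3.45 ± 0.16 CPM in WT suspension, 3.6 ± 0.089 CPM in EXT1kd adherent and 1.19 ± 0.19 CPM in WT adherent cells. LAMB3 did not pass in either knockdown comparison, and it was higher in suspension in EXT1kd (log2 1.91) and in WT (log2 1.78).

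Other basement membrane proteins, 20 tested of 25, moved in both directions. In suspension 4 were higher and 6 lower in EXT1kd (median log2 -0.16). The collagen-binding matrix protein SPARC fell by 2.51 on the log2 scale (adjusted p = 1.12e-12). The collagen IV chain gene COL4A3 rose by 0.91 (adjusted p = 0.00106), and EGFLAM, or pikachurin, a dystroglycan ligand, fell by 0.71 (adjusted p = 0.00132). In adherent cells 5 were higher and 3 lower (median 0.086), with PXDN, the peroxidase that cross-links collagen IV, higher by 1.23 (adjusted p = 1.13e-09), SPARC by 0.95 (adjusted p = 5.32e-07) and the integrin ligand NPNT by 0.48 (adjusted p = 0.000474). Suspension against adherent culture gave 11 higher and 4 lower in EXT1kd (median 0.46) and 14 higher and 2 lower in WT (median 0.74). COL4A6 was higher in suspension by 1.97 in EXT1kd and by 1.69 in WT (adjusted p = 1.64e-13 and 1.18e-12). Of all genes tested, the knockdown comparison called 8.29% higher and 12.6% lower in suspension, and 15.2% higher and 11.8% lower in adherent cells. The culture comparison called 26.8% higher and 29% lower in EXT1kd, and 27.7% higher and 28% lower in WT.

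Receptors for these proteins, 17 tested of 18, gave 1 higher and 3 lower with the knockdown in suspension (median -0.059) and 10 higher and none lower in adherent cells (median 0.32). In adherent cells the largest were CD44, a hyaluronan receptor that can carry heparan sulfate, at 1.08 (adjusted p = 0.000607), the integrin subunit ITGA3, at 0.77 (adjusted p = 1.6e-05), and dystroglycan, DAG1, at 0.57 (adjusted p = 4.27e-06). DAG1 averaged 179 ± 4.0 CPM in EXT1kd and 121 ± 6.8 CPM in WT adherent cells, and 114 ± 3.0 CPM in EXT1kd and 112 ± 6.4 CPM in WT suspension cells. In suspension the laminin alpha-5 receptor BCAM was at -0.49 (adjusted p = 0.00526), ITGA7 at 0.42 (adjusted p = 0.0177) and the tetraspanin CD151 at -0.38 (adjusted p = 0.0223). Suspension against adherent culture gave 10 higher and 5 lower in EXT1kd and 11 higher and none lower in WT, with CD44 at 1.99 in EXT1kd and 3.35 in WT (adjusted p = 8.24e-09 and 2.42e-11). The shares of all genes called with the knockdown were 8.29% higher and 12.6% lower in suspension, and 15.2% higher and 11.8% lower in adherent cells. With culture they were 26.8% higher and 29% lower in EXT1kd, and 27.7% higher and 28% lower in WT.

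Alpha-dystroglycan binds laminin, agrin and perlecan through a sugar chain built by a set of glycosylation enzymes, all 17 of which were tested. In suspension 2 were higher and 3 lower in EXT1kd (median -0.070), with B4GAT1, which primes the matriglycan chain, at -0.86 (adjusted p = 3.36e-05), and LARGE2, which polymerizes it, at -0.51 (adjusted p = 0.0112). In adherent cells 7 were higher and 1 lower (median 0.19), with LARGE2 at 1.02 (adjusted p = 4.25e-05) and the mannosyltransferase POMT1 at 0.54 (adjusted p = 0.00014). Culture gave 4 higher and 10 lower in EXT1kd and 4 higher and 7 lower in WT. The shares of all genes called by culture were 26.8% higher and 29% lower in EXT1kd, and 27.7% higher and 28% lower in WT. With the knockdown they were 8.29% higher and 12.6% lower in suspension, and 15.2% higher and 11.8% lower in adherent cells.

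Proteases of the basement membrane and their inhibitors, 17 tested of 22, gave 1 higher and 2 lower with the knockdown in suspension (median 0.061) and 6 higher and 4 lower in adherent cells (median -0.0071). The metalloproteinase TLL1 was lower in EXT1kd in suspension, at -1.84 (adjusted p = 0.000402), and in adherent cells, at -0.90 (adjusted p = 0.0095), at mean levels of at most 4.72 CPM. The heparanase HPSE, which cuts heparan sulfate chains, was at 0.81 in adherent cells (adjusted p = 0.00111). Suspension against adherent culture gave 9 higher and 4 lower in EXT1kd and 10 higher and 3 lower in WT. The plasminogen activator PLAU was at 2.73 in EXT1kd and 3.13 in WT (adjusted p = 1.68e-07 and 4.61e-08). Its mean level in adherent cells was low, at 0.82 CPM in EXT1kd and 0.621 CPM in WT. Among all genes the knockdown calls were 8.29% higher and 12.6% lower in suspension, and 15.2% higher and 11.8% lower in adherent cells. The culture calls were 26.8% higher and 29% lower in EXT1kd, and 27.7% higher and 28% lower in WT.

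**Figure D4:**
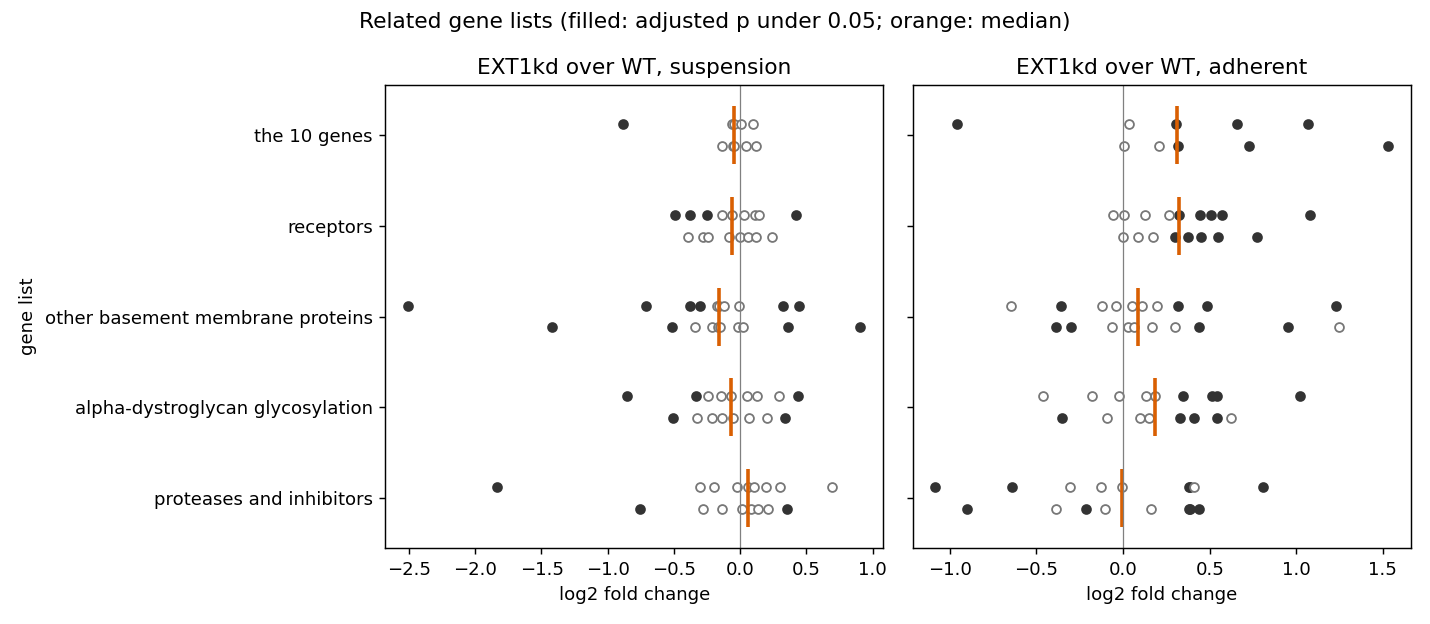
Log2 fold change of EXT1kd over WT for the tested genes of each list in suspension (left) and adherent culture (right); each point is a gene, filled where the adjusted p was under 0.05 in edgeR, and the orange line is the list's median. Receptors have 10 filled points above 0 in adherent cells, and the 10 genes have 6. Of all genes tested, 15.2% were called higher there.

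Marker lists of other cell types moved with some of these groups, and their part in the results was not tested. All 5 epithelial markers were measured, with sums of 388 to 443 CPM in EXT1kd suspension, 468 to 516 CPM in WT suspension, 555 to 566 CPM in EXT1kd adherent and 366 to 437 CPM in WT adherent libraries. Their members did not all move alike. In suspension CDH1 was higher in EXT1kd (log2 0.65, adjusted p = 0.000406), while KRT19 (-2.62, adjusted p = 3.96e-10) and EPCAM (-0.26, adjusted p = 0.00744) were lower. KRT8 and KRT18 did not pass there. The 8 fibroblast markers summed to 30.3 to 33.3 CPM in EXT1kd suspension, 30.6 to 33.2 CPM in WT suspension, 31.6 to 36.3 CPM in EXT1kd adherent and 19.5 to 22.9 CPM in WT adherent libraries, with COL1A2 at 0 in EXT1kd adherent and WT suspension libraries and THY1 at 0 in WT suspension. Close sums hid opposite moves. In EXT1kd cells LUM, COL3A1 and PDGFRB were higher in suspension, and COL1A1 and PDGFRA were lower. LUM averaged 12.7 CPM in EXT1kd suspension and 3.3 CPM in EXT1kd adherent cells, and COL1A1 averaged 15.3 and 27.4 CPM. The 5 markers of parietal endoderm, a cell type rich in laminin, summed to 61.1 to 70.2 CPM in EXT1kd suspension, 70.4 to 74.9 CPM in WT suspension, 141 to 152 CPM in EXT1kd adherent and 103 to 123 CPM in WT adherent libraries, with SOX17 at 0 in every library and AFP at 0 outside WT suspension. GATA6 made up most of that sum and differed from the other markers. In adherent cells GATA6 averaged 105 ± 5.3 CPM in EXT1kd and 75.4 ± 6.9 CPM in WT (adjusted p = 0.000143), GATA4 averaged 37.7 ± 1.4 CPM in EXT1kd and 36.5 ± 4.5 CPM in WT (adjusted p = 0.782), and FOXA2 averaged 2.36 CPM in each. In WT cells FOXA2 was higher in suspension by 0.79 on the log2 scale (adjusted p = 0.00243), while GATA4 fell by 0.58 (adjusted p = 6.67e-05) and GATA6 fell by 0.76 (adjusted p = 1.83e-07).

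Correlations were taken across the 12 libraries, which share 4 group means. The closest pairs among the 10 by Pearson correlation of log2 CPM were LAMB1 with NID1 at 0.93, LAMA5 with HSPG2 at 0.929, LAMB2 with NID1 at 0.928, NID1 with AGRN at 0.924 and LAMB2 with AGRN at 0.923. LAMA4 and LAMC1 ran against each other at -0.898, and LAMA1 and LAMA4 had -0.438. Among 11093 protein-coding genes with a mean of at least 5 CPM, the gene most like NID1 was NAAA, a lysosomal amidase, at 0.991, and the one most like NID2 was COL2A1, the cartilage collagen gene, at 0.986. The gene most like LAMA1 was PLIN2, a lipid droplet coat protein, at 0.971, and the one most like LAMB2 was FLNA, an actin cross-linker, at 0.983. HSPG2 was most like IQGAP3 at 0.987, LAMA4 like FMN1 at 0.985, AGRN like TTYH3 at 0.983, LAMC1 like WDR7 at 0.981, LAMA5 like ARAP3 at 0.981 and LAMB1 like NMRK1 at 0.987. On log2 FPKM 7 of these genes stayed first, while FMN1 ranked 89 for LAMA4 (0.947, with EIF2S3 first at 0.986), IQGAP3 ranked 6 for HSPG2 (0.984, with FMNL1 first at 0.988) and NMRK1 ranked 4 for LAMB1 (0.975).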

How the data were processed

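RNA-seq tables of 12 HEK293 libraries were used. The authors deposited read counts per gene as whole numbers. The submitters' processing notes name HISAT2 for alignment to GRCh38, without a version, and featureCounts 1.5.0. The deposited FPKM values equal those computed from the counts times a constant of 0.942 to 1.029 per library. The annotation release is not given in the sources used here. Groups came from the sample titles. The main test was edgeR 4.0.16 (R 4.3.3) on these counts: filterByExpr by group, which left 17115 of 36513 genes with reads and 99.9% of reads, TMM scaling, a mean per group over all 12 libraries, and quasi-likelihood tests of 5 contrasts, with Benjamini-Hochberg adjustment over all genes at 0.05. All adjusted p-values are from this test unless another setting is named. SE is the absolute log2 fold change over the square root of F, and intervals are at 95%. The test was run on simulated counts in which few genes changed, and only in adherent EXT1kd cells. That setting is unlike the culture comparisons, so it does not show how the test behaves there. Shares and ratios used FPKM and exact permutation tests. The alternatives were other filters, scalings, DESeq2 1.42.0, limma 3.58.1 on voom values or log2(FPKM + 1) and log2(FPKM + 0.1), 6 libraries per fit, a replicate block, removal of chromosome medians, and leaving out each library. Promoter windows came from RefSeq. The members, lists, contrasts and alternatives were chosen with earlier results of these data known, so no p is given over a list. Named were all 10 members, up to 3 genes per list and comparison with the largest change past the threshold and a mean of at least 1 CPM, and the 5 genes most like each member. LAMB3, LAMA3 and DAG1 in suspension are given for comparison, and the overlapping genes ADRM1, DLD and RTRAF for shared reads. Some items of the named lists are not reported here.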

Additional observations from a re-analysis of the deposited data

Results flagged for a closer look

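The knockdown effect differed between the cultures for 8 genes, by the test of the difference itself in edgeR's quasi-likelihood fit (effect in suspension minus effect in adherent cells, log2 scale). It was lower in suspension for LAMA1 (-1.594, adjusted p = 1.77e-08), NID1 (-0.972, adjusted p = 4.2e-07), NID2 (-0.8906, adjusted p = 3.17e-05), AGRN (-0.7762, adjusted p = 0.000986), LAMB2 (-0.7105, adjusted p = 0.00139), LAMC1 (-0.4543, adjusted p = 0.00141) and LAMB1 (-0.2648, adjusted p = 0.0324). It was higher in suspension for LAMA4 (0.9083, adjusted p = 3.2e-05). Of all genes tested, 9.45% were called higher and 14.6% lower in this test. The LAMB1 call was lost without WT adherent replicate 1, and when any single library of the other groups was left out (adjusted p = 0.0592 to 0.0971).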

How the results depend on the processing

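The counts of the 10 genes called per comparison stayed within 1.5 times the reported ones under every alternative run. Where 7 or more of the 10 were called, no setting could exceed that bound, so only lost calls could show there. The genes behind a count could also change. With chromosome medians removed, the culture comparison in EXT1kd gained LAMB2 (0.289, adjusted p = 0.0296) and NID2 (0.437, adjusted p = 0.000303) and lost NID1 (adjusted p = 0.0509). Replicate numbers did not pair the libraries (correlations of same-numbered libraries -0.155 to 0.146), and with a replicate block 1 gene was called in the suspension knockdown comparison, 7 in the adherent one, 8 and 9 in the culture comparisons of EXT1kd and WT, and 8 for the interaction, the same counts as without it. The interaction could not be fitted on 6 libraries. Some fold changes reported near 0 changed sign. NID2 in the adherent knockdown comparison did so with no filter (-0.0033), a stricter filter (-0.00446), DESeq2 size factors (-0.000753), the DESeq2 Wald test (-0.000472), 6 libraries (-0.00341) and chromosome medians removed (-0.0251). LAMB2 between cultures in EXT1kd did so with the stricter filter (0.0162), library totals (0.0294) and 6 libraries (0.00532). With chromosome medians removed LAMB2 also changed sign there, to 0.289, and passed the threshold. HSPG2 in the suspension knockdown comparison changed sign with limma-voom (-0.00339). In that comparison LAMA4 (0.163) and LAMB1 (-0.0476) did so with chromosome medians removed. With each library left out in turn, the values that changed sign ran from -0.0504 to 0.0409 for NID2, -0.0924 to 0.195 for HSPG2 (adherent knockdown comparison), -0.0888 to 0.00631 for AGRN, -0.113 to 0.108 for HSPG2 (suspension knockdown comparison), -0.073 to 0.0697 for LAMB2 (cultures in EXT1kd), and -0.29 to 0.0334 for LAMA5 and -0.19 to 0.0991 for HSPG2 (interaction), none of them past the threshold. The LAMB1 interaction was also lost with no filter (adjusted p = 0.145) and with DESeq2 size factors (adjusted p = 0.0504), and the NID1 culture call in EXT1kd with no filter (0.0531) and with chromosome medians removed (0.0509). Over all genes, removing chromosome medians gave 1340 lower in the suspension knockdown comparison (2158 as reported), 1627 higher in the adherent one (2609) and 1432 lower for the interaction (2496). Fits of 6 libraries gave 2509 higher in the suspension comparison (1419) and 1316 lower in the adherent one (2024). Leaving out WT suspension replicate 1, 2 or 3 gave 918, 767 or 859 higher in the suspension comparison, leaving out EXT1kd suspension replicate 1 gave 1431 lower, and leaving out EXT1kd adherent replicate 1 or 3 gave 1339 or 1325 lower in the adherent one. The cause of these changes was not tested.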
